A study of Mus musculus with 6 samples.

Results

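The glucocorticoid receptor gene Nr3c1 and 6 genes that the receptor is known to induce were followed in splenic CD4+ T cells of mice in which experimental autoimmune encephalomyelitis (EAE), an inflammatory attack on the central nervous system, had been induced. The 7 genes were picked by symbol, Nr3c1, Tsc22d3, Fkbp5, Sgk1, Ddit4, Klf9 and Txnip, out of 54532 rows of a table of read counts per gene. All 7 passed the filter on low counts, as did 16075 genes in all. The mice labelled Ogt-KD had the genotype Ogtfl/wt CD4-Cre, in which Cre driven from Cd4 regulatory DNA acts in T cells and 1 Ogt allele is floxed while the other is wild type. Ogt, an X-linked gene, encodes the enzyme that adds O-GlcNAc to proteins. The Ogt-KD mice were set against control mice of wild-type genotype, for which the labels name neither Cre nor a floxed allele, so Ogt loss and Cre expression cannot be told apart. The design text gives 3 mice per group, and all mice were C57BL/6 with EAE at the acute phase. Age and sex are not given in the labels, but a floxed and a wild-type allele of an X-linked gene imply female Ogt-KD mice. The sex of the control mice is not known.

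Glucocorticoids are adrenal steroid hormones that damp immune responses. Their receptor waits in the cytosol in a complex with Hsp90 and co-chaperones, moves to the nucleus when it binds hormone, and binds DNA at response elements made of a pair of inverted arms. Tsc22d3 (also called GILZ) carries out part of the anti-inflammatory action in T cells, and Fkbp5 is a co-chaperone that lowers the receptor's affinity for hormone. Sgk1 is a kinase, Ddit4 (REDD1) restrains the growth kinase complex mTORC1, Klf9 is a zinc-finger transcription factor, and Txnip binds thioredoxin and limits glucose uptake.

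Promoter sequence was available from RefSeq (GRCm38.p6) for 6 of the 7 genes, in 13 windows of 300 bases that run from 250 bases before a transcription start to 50 after it. The response element was searched on both strands as AGAACA and TGTTCT with any 3 bases between them. It was in 3 of 32851 mouse promoter windows (0.00913%), and 1 of these was an Sgk1 window, chr10:21993640-21993939 on the plus strand. The match covers bases 62 to 76 of that window, so it begins 189 bases before its start site (chr10:21993701-21993715). It is shown because Sgk1 was the member whose groups did not overlap in the counts. Sgk1 had 6 of the 13 windows, Tsc22d3 had 3, and Fkbp5, Ddit4, Klf9 and Txnip had 1 each. Sgk1 thus had the most windows in which a match could fall. The single arm AGAACA, which the full element contains, was in 4 of the 13 windows, of Sgk1 and Tsc22d3, and in 19% of all windows. The E box CACGTG, a site read by bHLH factors, was in 2 of the 13 windows, of Fkbp5 and Sgk1, against 7.15% of all windows. A relaxed form of the element, GNACA and TGTNC with 3 bases between them, was added after the sequences had been seen, and it overlaps the full element in Sgk1. Beside Sgk1 it was found in the Txnip window, and it occurred in 0.475% of all windows. A match describes these letters only. Below, capitals mark the full element in Sgk1 (chr10:21993640-21993939, plus strand), the relaxed element in Txnip (chr3:96557707-96558006, plus strand) and the E box in Fkbp5 (chr17:28486100-28486399, minus strand).
Sgk1: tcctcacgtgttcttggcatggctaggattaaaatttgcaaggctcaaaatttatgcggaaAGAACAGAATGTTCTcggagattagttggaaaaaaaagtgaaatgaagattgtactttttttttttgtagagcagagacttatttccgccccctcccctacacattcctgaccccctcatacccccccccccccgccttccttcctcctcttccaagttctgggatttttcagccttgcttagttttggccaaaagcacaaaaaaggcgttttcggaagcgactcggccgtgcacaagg
Txnip: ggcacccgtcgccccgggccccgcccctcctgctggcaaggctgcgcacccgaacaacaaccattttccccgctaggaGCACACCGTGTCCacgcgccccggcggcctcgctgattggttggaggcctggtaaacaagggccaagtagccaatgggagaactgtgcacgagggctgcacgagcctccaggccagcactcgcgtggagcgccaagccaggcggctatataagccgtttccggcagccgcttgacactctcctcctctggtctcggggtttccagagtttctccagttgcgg
Fkbp5: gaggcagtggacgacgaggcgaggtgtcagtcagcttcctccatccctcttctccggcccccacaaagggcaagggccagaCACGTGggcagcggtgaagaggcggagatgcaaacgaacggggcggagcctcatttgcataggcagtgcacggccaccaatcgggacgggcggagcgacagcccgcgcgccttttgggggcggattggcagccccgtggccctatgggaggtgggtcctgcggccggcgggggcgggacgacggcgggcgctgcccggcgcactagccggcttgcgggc

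None of the 7 genes passed the test between the groups after adjustment over all genes tested. Total counts ran from 18127031 to 25683453 reads per library. Of 16075 genes, 1 passed the edgeR quasi-likelihood test at an adjusted p under 0.05, which is 0.00622% of those tested, and with the replicate number as a block 47 passed (0.292%). Ogt itself, in CPM (read counts scaled to library size), stood at 662, 599 and 459 in Ogt-KD replicates 1, 2 and 3, against 599, 628 and 562 in control replicates 1, 2 and 3. These groups overlapped (log2 fold change -0.06, 95% interval -0.41 to 0.30), so Ogt RNA over the whole gene does not separate the groups, and the labels do not say which exons are floxed. Group names are therefore those of the labels. The T cell markers were high in every library, at summed levels of 3526 to 3893 CPM in Ogt-KD and 3702 to 4109 CPM in control libraries. Markers of other cells were present too. B cell markers summed to 94.6 to 125 CPM in Ogt-KD and 75.2 to 108 CPM in control libraries, neutrophil markers to 127 to 299.8 and 110 to 219 CPM, and CD8 and NK markers to 28.3 to 35.9 and 29.3 to 30.4 CPM. The first principal component, 44.8% of the variance, had both libraries numbered 3 at its positive end and Ogt-KD replicates 1 and 2 at its negative end.

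**Figure D1:**
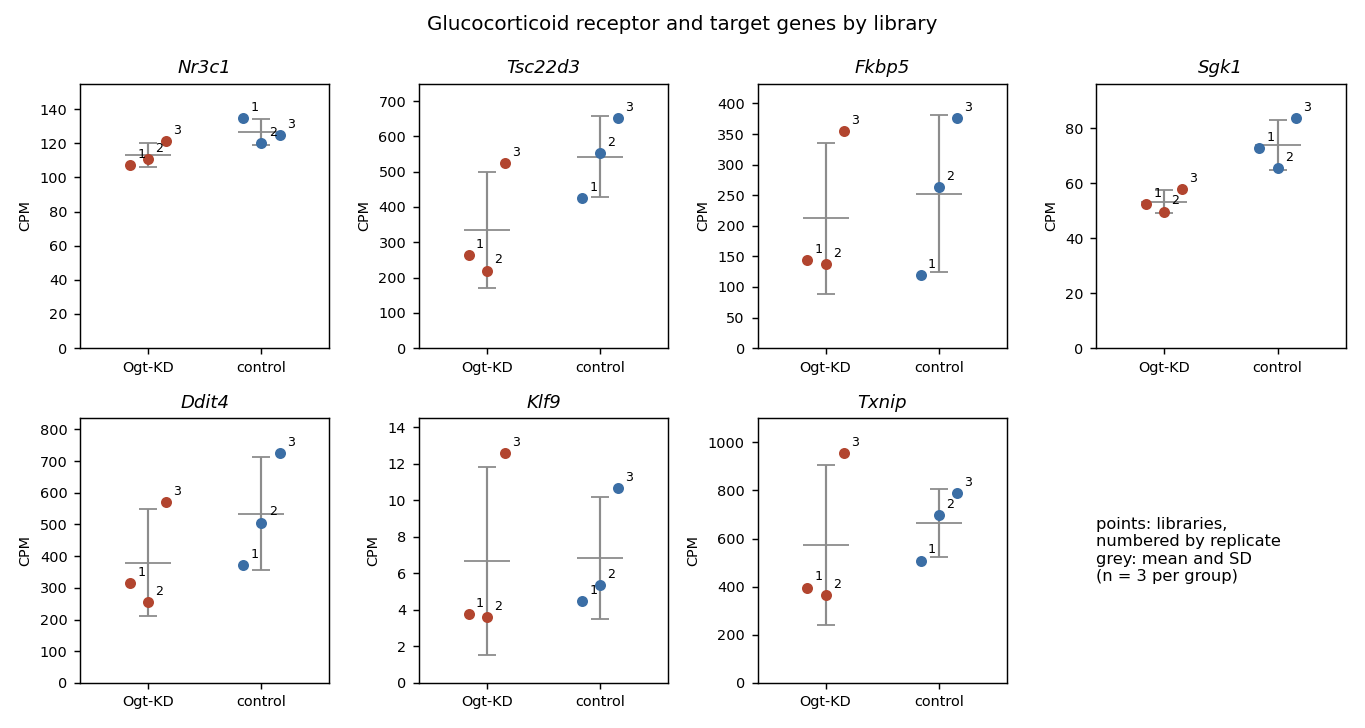
CPM of each of the 7 genes in every library, Ogt-KD at left and control at right, with the replicate number beside each point and the mean and SD (n = 3) in grey. Only for Sgk1 do all Ogt-KD points (49.7 to 57.8 CPM) lie below all control points (65.4 to 83.6 CPM), while in 5 other panels Ogt-KD replicate 3 sits far above the other Ogt-KD libraries.

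Nr3c1, the receptor gene, was the steadiest of the members. The deposited table lists it at chr18:39410545-39491301 on the minus strand, and it stood at 107, 111 and 121 CPM in Ogt-KD replicates 1, 2 and 3, against 135, 120 and 125 CPM in control replicates 1, 2 and 3. The groups overlapped, since the highest Ogt-KD library lay just above the lowest control library. The mean was 113 ± 7.16 CPM in Ogt-KD and 127 ± 7.46 CPM in control libraries (SD, n = 3 each). By edgeR the log2 fold change was -0.16 with an SE of 0.09, a 95% interval of -0.37 to 0.05 and an adjusted p of 0.741. In a bulk sample, fewer cells that express a gene and less RNA of it per cell cannot be told apart, and this holds for every difference given here.

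Sgk1, the kinase whose promoter is printed above, lay lower in every Ogt-KD library. The gene spans chr10:21882184-21999903 on the plus strand. It had 52.3, 49.7 and 57.8 CPM in Ogt-KD replicates 1, 2 and 3, against 72.7, 65.4 and 83.6 CPM in control replicates 1, 2 and 3, so the groups did not overlap. Such a separation, with all Ogt-KD libraries below all controls, was found for 1 of the 7 members and for 5.88% of all genes tested. The log2 fold change was -0.47 (SE 0.12, 95% interval -0.74 to -0.20), with an unadjusted p of 0.0046 and an edgeR adjusted p of 0.517. Of the 7 members 1, Sgk1, had an unadjusted p under 0.05, against 7.52% of all genes tested, and 2.48% had it with a lower level in Ogt-KD. With the replicate number as a block 3 of the 7, Sgk1, Tsc22d3 and Ddit4, had an unadjusted p under 0.05 and a lower level in Ogt-KD, where 5.63% of all genes did, and Sgk1 had an adjusted p of 0.0703 in that edgeR fit. In the authors' deposited table its log2 fold change was -0.48 with an adjusted p of 0.151. DESeq2 gave an adjusted p of 0.159. Over 13 other settings, libraries left out included, the log2 fold change stayed between -0.55 and -0.39.

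Tsc22d3, the anti-inflammatory mediator, had the largest estimated difference of the 7 members. It lies at chrX:140539528-140600659 on the minus strand. Ogt-KD replicates 1, 2 and 3 held 263, 220 and 524 CPM, against 425, 552 and 652 CPM in control replicates 1, 2 and 3. Ogt-KD replicates 1 and 2 were below every control, and Ogt-KD replicate 3 was above control replicate 1, so the groups overlapped. The mean was 335 ± 165 CPM in Ogt-KD and 543 ± 114 CPM in control libraries (SD, n = 3 each). By edgeR this was a log2 fold change of -0.69 with an SE of 0.34, a 95% interval of -1.49 to 0.10 and an adjusted p of 0.689. It was -1.17 without Ogt-KD replicate 3, -0.46 without Ogt-KD replicate 2 and -1.02 without both libraries numbered 3 (edgeR adjusted p = 0.0895, the lowest of any setting tried for this gene). Between libraries of the same number, Ogt-KD minus control was -0.69, -1.33 and -0.32 in log2 CPM for numbers 1, 2 and 3, all below 0. The block fit gave an unadjusted p of 0.0060 by edgeR and an adjusted p of 0.167. The authors' deposited table gave -0.70 with an adjusted p of 0.549.

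Ddit4, the mTORC1 inhibitor, had a similar layout. It lies at chr10:59949669-59951834 on the minus strand, on the same chromosome as Sgk1. It stood at 315, 254 and 571 CPM in Ogt-KD replicates 1, 2 and 3, against 371, 506 and 726 CPM in control replicates 1, 2 and 3. Again Ogt-KD replicates 1 and 2 lay below all controls and Ogt-KD replicate 3 among them. By edgeR the difference was -0.49 on the log2 scale (SE 0.35, 95% interval -1.32 to 0.34, adjusted p = 0.850), and it was -0.91 without Ogt-KD replicate 3 and -0.22 without control replicate 3. Between libraries of the same number the differences in log2 CPM were -0.24, -0.99 and -0.35, again all below 0, and the block fit of edgeR gave an unadjusted p of 0.0116 and an adjusted p of 0.214.

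Fkbp5, the co-chaperone that feeds back on the receptor, varied by more within a group than between groups. It lies at chr17:28399094-28517527 on the minus strand. Ogt-KD replicates 1, 2 and 3 had 144, 138 and 355 CPM, and control replicates 1, 2 and 3 had 119, 263 and 376 CPM. The lowest library of all was a control. Between libraries of the same number, Ogt-KD minus control was 0.27, -0.93 and -0.08 in log2 CPM for numbers 1, 2 and 3, so number 1 lay above 0. The highest control library exceeded the lowest by 3.16-fold, and the highest Ogt-KD library exceeded the lowest by 2.57-fold. The log2 difference of -0.25 (SE 0.50, interval of 95% from -1.43 to 0.93, adjusted p = 0.976 by edgeR) turned to 0.14 without control replicate 3.

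Txnip, the thioredoxin-binding protein, followed the same libraries. The gene spans chr3:96557957-96561883 on the plus strand. It stood at 396, 364 and 956 CPM in Ogt-KD replicates 1, 2 and 3, against 509, 696 and 790 CPM in control replicates 1, 2 and 3. The highest value of the 6 was Ogt-KD replicate 3 and the lowest was Ogt-KD replicate 2. Same-numbered libraries differed by -0.36, -0.94 and 0.28 in log2 CPM for numbers 1, 2 and 3, so number 3 lay above 0. By edgeR its log2 fold change was -0.22, with an SE of 0.39, a 95% interval of -1.13 to 0.69 and an adjusted p of 0.970. It was -0.81 with Ogt-KD replicate 3 left out and 0.025 with Ogt-KD replicate 2 left out. The antisense gene Gm15441 shares 606 exonic bases with Txnip in GENCODE M21, and with the strand setting of the counts not given its reads cannot be told from those of Txnip. It was counted at 1.12 to 2.88 CPM over the 6 libraries, far under Txnip.

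Klf9, the zinc-finger factor, was the member with the fewest reads, 71 to 315 per library. It is listed at chr19:23141226-23166911 on the plus strand. Ogt-KD replicates 1, 2 and 3 had 3.77, 3.60 and 12.6 CPM, against 4.48, 5.36 and 10.6 CPM in control replicates 1, 2 and 3. The libraries numbered 3 were the highest of each group, and the groups overlapped fully. Same-numbered libraries differed by -0.24, -0.56 and 0.24 in log2 CPM for numbers 1, 2 and 3, so number 3 lay above 0. By edgeR the difference was -0.02 on the log2 scale (SE 0.57, 95% interval -1.36 to 1.32, adjusted p = 0.998), and its sign depended on the library kept, from -0.88 without Ogt-KD replicate 3 to 0.43 without control replicate 3. With library size alone as the scaling it was 0.0064.

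**Figure D2:**
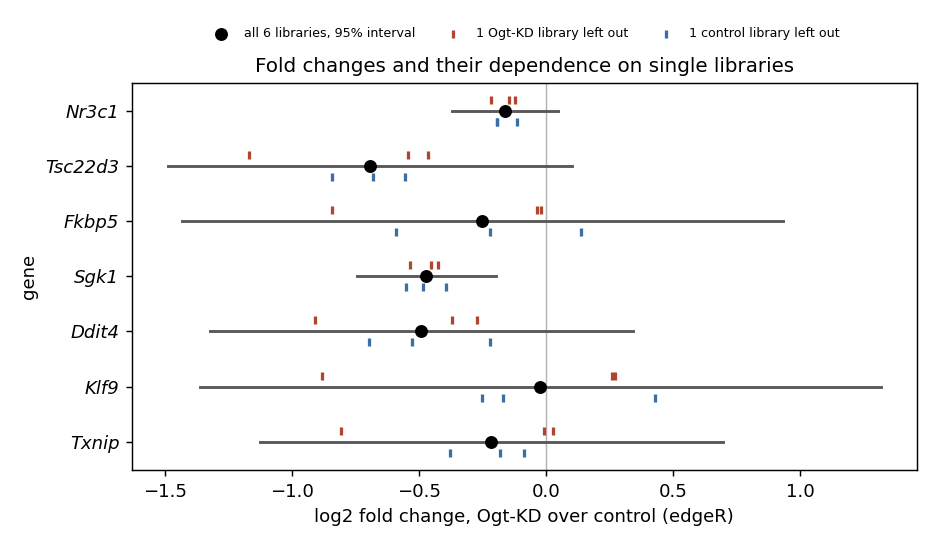
Ogt-KD over control as a log2 fold change for each member, with the 95% interval from edgeR on all 6 libraries (black) and the value after 1 Ogt-KD (red) or 1 control (blue) library was left out. The interval of Sgk1, -0.74 to -0.20, is the only one that stays below 0, and the leftmost red mark of Tsc22d3, at -1.17, is the value without Ogt-KD replicate 3.

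All 7 log2 fold changes were below 0, with a median of -0.25, while 51.0% of all genes tested lay below 0 and their median was -0.005. At an adjusted p under 0.05 edgeR, DESeq2 and limma-voom each called 0 of the 7, where DESeq2 called 0.638% of the genes it tested. All Ogt-KD libraries lay above all controls for 0 of the 7, against 7.43% of all genes. The members share the same libraries, so their signs are not independent of each other.

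Compared per length, as the authors' FPKM (fragments scaled to gene length and library size), 3 target genes stood far above the rest. Ddit4 averaged 215 ± 96.4 FPKM in Ogt-KD and 303 ± 102 FPKM in control libraries, Txnip 182 ± 107 and 212 ± 46.7 FPKM, and Tsc22d3 76.8 ± 38.1 and 125 ± 26.6 FPKM (SD, n = 3 each). In all 6 libraries Ddit4 stood above Txnip and Txnip above Tsc22d3. Fkbp5 averaged 22.3 ± 13.1 and 26.6 ± 13.6 FPKM, Nr3c1 15.1 ± 1.04 and 17.0 ± 0.859 FPKM, and Sgk1 10.8 ± 0.899 and 15.0 ± 1.84 FPKM in Ogt-KD and control libraries. The order of Fkbp5, Nr3c1 and Sgk1 differed between libraries, and their ranges overlapped. Klf9 was lowest in every library, at 2.03 ± 1.58 FPKM in Ogt-KD and 2.08 ± 1.02 FPKM in control libraries.

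The members fell into a variable set and a steady pair. The SD of log2 CPM within groups was 0.85 for Klf9, 0.81 for Fkbp5, 0.59 for Txnip, 0.55 for Ddit4 and 0.52 for Tsc22d3, which placed these 5 genes at percentiles 95.8, 94.9, 88.3, 85.7 and 84.0 of all genes tested. Sgk1 (SD 0.15, percentile 29.7) and Nr3c1 (SD 0.09, percentile 10.7) varied little. Receptor RNA was thus nearly level across libraries in which 5 of its target genes differed by up to 3.50-fold within a group. For each of those 5 genes, Ogt-KD replicate 2 was the lowest and replicate 3 the highest Ogt-KD library, and control replicate 1 was the lowest and replicate 3 the highest control library. This full order of the libraries within both groups was shared by 5 of the 7 members and by 588 of all 16075 genes tested (3.66%). The order was read from these values and carries no test.

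The sum of macrophage markers shared its highest library in each group with the variable members, but not their full order. The summed level of the 9 markers (Adgre1, Cd68, Csf1r, Vcam1, Spic, Cd163, C1qa, C1qb and Lyz2) was 767, 838 and 3318 CPM in Ogt-KD replicates 1, 2 and 3, against 1561, 1595 and 3690 CPM in control replicates 1, 2 and 3. Within each group the library numbered 3 was thus highest for the macrophage list and for the 5 variable members, and over all 6 libraries Ogt-KD replicates 1 and 2 were lowest for the macrophage list. Among Ogt-KD libraries the sum was lowest in replicate 1, but the 5 members were lowest in replicate 2. Over all 6 libraries Fkbp5 was lowest in control replicate 1 (119 CPM). Txnip and Klf9 were highest in Ogt-KD replicate 3, and the macrophage sum in control replicate 3. All 9 markers were detected in every library, and 8 of 9 had a log2 fold change below 0 (median -0.58). Lyz2 did not follow the sum, at 205, 178 and 189 CPM in Ogt-KD and 199, 141 and 169 CPM in control replicates 1, 2 and 3. Cd163 is also in the list of genes induced by glucocorticoids, so the 2 lists are not separate. Vcam1, an adhesion molecule of red pulp macrophages, had 153, 164 and 1241 CPM in Ogt-KD replicates 1, 2 and 3, against 418, 445 and 1285 CPM in control replicates 1, 2 and 3. Dendritic cell and antigen presentation markers were arranged the other way, with sums of 1648, 2356 and 841 CPM in Ogt-KD and 991, 1013 and 467 CPM in control replicates 1, 2 and 3. All 9 of them had a log2 fold change above 0 (median 1.12), and edgeR called 0 of them, but 4 higher with the replicate block (0.199% of all genes). Erythroid markers were highest in Ogt-KD replicate 3, at 210 CPM, against 22.1 to 59.4 CPM in the other 5 libraries, and edgeR called 0 of the 8, but 2 higher with the block. The part of these cells in the values of Tsc22d3, Fkbp5, Ddit4, Klf9 and Txnip was not tested. Among the libraries numbered 1 and 2, both macrophage sums of Ogt-KD were below both of the controls.

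**Figure D3:**
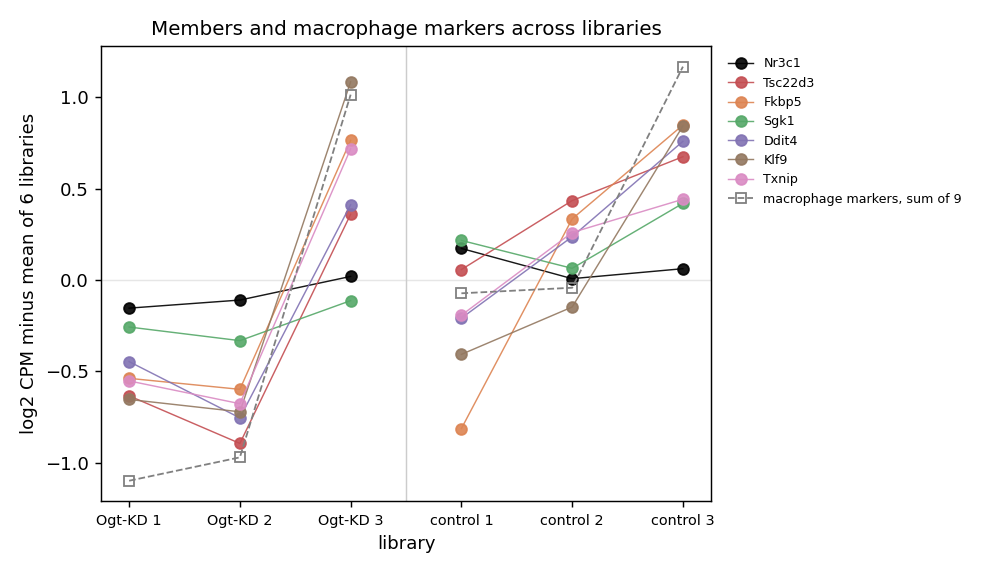
Log2 CPM of the 7 members, and of the summed macrophage markers (grey squares), minus the mean of the 6 libraries, with Ogt-KD at left and control at right and lines that only link the libraries of a group. The 5 variable members and the macrophage sum are highest in the libraries numbered 3 within each group, while Nr3c1 (black) stays near 0 and Sgk1 (green) lies below 0 in all Ogt-KD and above 0 in all control libraries.

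The chaperones that hold the receptor in its hormone-binding state had mostly lower levels in Ogt-KD libraries. Of 17 genes, all tested, 16 had a log2 fold change below 0, with a median of -0.49 against -0.005 over all genes. For 9 of the 17 every Ogt-KD library lay below every control, where 5.88% of all genes did. The list was chosen with earlier results of these data known, so its counts beside those of all genes are a description only. edgeR called 0 of them and DESeq2 called 4 lower, where it called 0.638% of all genes in either direction. In edgeR 9 had an unadjusted p under 0.05 and a lower level in Ogt-KD (2.48% of all genes). With the replicate number as a block it called 2 lower, Fkbp4 and Hsph1 (0.0933% of all genes were called lower in that fit). Fkbp4, the co-chaperone that competes with Fkbp5 for Hsp90 and helps carry the receptor to the nucleus, had 118, 112 and 106 CPM in Ogt-KD replicates 1, 2 and 3, against 205, 176 and 155 CPM in control replicates 1, 2 and 3. Its groups did not overlap, and the log2 difference of -0.67 (SE 0.12) had an adjusted p of 0.480 by edgeR, 0.0443 with the block and 0.0044 by DESeq2. Hsph1, a nucleotide exchange factor of Hsp70, averaged 84.9 ± 30.5 CPM in Ogt-KD and 193 ± 62.5 CPM in control libraries. Its log2 difference of -1.19 (SE 0.34) had an adjusted p of 0.556 by edgeR, 0.0143 with the block and 0.0389 by DESeq2.

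Among the other named chaperones, Dnaja1, an Hsp40 that delivers clients to Hsp70, averaged 261 ± 23.4 CPM in Ogt-KD and 419 ± 82.1 CPM in control libraries (log2 fold change -0.68, SE 0.16). Hspa8, the constitutive Hsp70, averaged 1313 ± 190 and 2011 ± 154 CPM in Ogt-KD and control libraries (-0.61, SE 0.15). Ahsa1, an activator of the Hsp90 ATPase, averaged 73.2 ± 5.63 and 103 ± 13.6 CPM (-0.49, SE 0.12). For all 3 the groups did not overlap, none passed in either edgeR fit, and DESeq2 called Dnaja1 (adjusted p = 0.0389) and Hspa8 (adjusted p = 0.0195). Ptges3 (-0.28, SE 0.13), the p23 co-chaperone of the mature receptor complex, overlapped between groups, and Bag1, Ppid, Ppp5c and Hspa4 lay within 0.05 of 0 on the log2 scale. The list's median was -0.28 when control replicate 2 was left out, the library with the most Hspa1b (48.3 CPM, against at most 4.56 CPM elsewhere). Hspa1a and Hspa1b are near-identical copies, so their separate counts are uncertain.

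**Figure D4:**
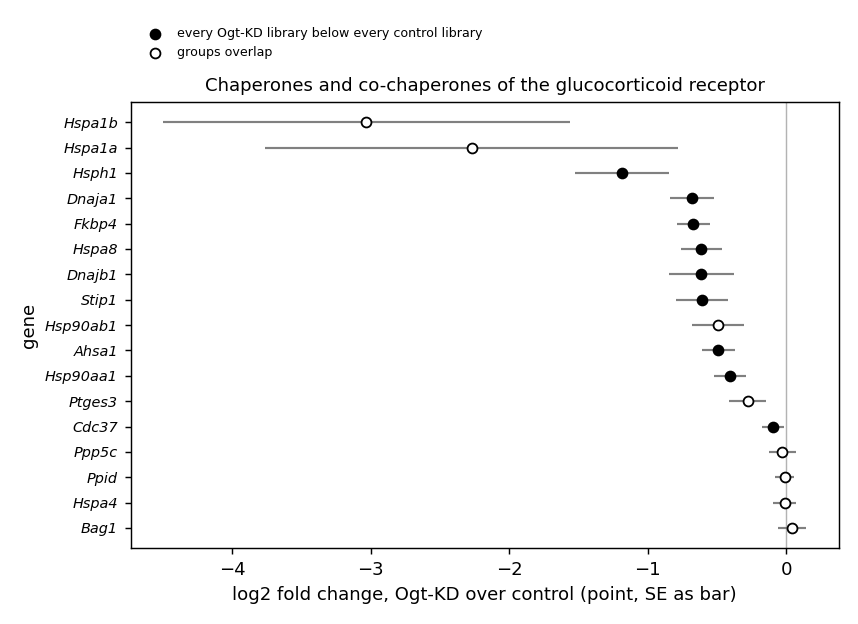
Ogt-KD over control as a log2 fold change (point) with its SE (bar) for 17 chaperones and co-chaperones of the receptor. Filled points mark the 9 genes for which every Ogt-KD library was below every control library, and open points the genes whose groups overlapped.

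No receptor coregulator or hormone-converting enzyme gene passed the test. Of 15 genes 13 were tested, 11 lay below 0, with a median of -0.15. DESeq2 called 0, and edgeR called 0 with or without the block and had 0 at an unadjusted p under 0.05. The median was -0.03 without Ogt-KD replicate 3 and also without control replicate 2. The coactivator gene Ncoa1 averaged 59.1 ± 2.03 CPM in Ogt-KD and 65.8 ± 4.68 CPM in control libraries (log2 fold change -0.16, SE 0.09), and the acetyltransferase gene Crebbp had -0.17 (SE 0.12). Hsd11b1, whose enzyme regenerates active corticosterone, averaged 69.9 ± 5.48 and 80.6 ± 14.8 CPM in Ogt-KD and control libraries (-0.21, SE 0.15). The mineralocorticoid receptor gene Nr3c2 and Hsd11b2, whose enzyme inactivates the hormone, were too low to test, with 47 and 32 reads over all libraries.

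Other genes known to be induced by glucocorticoids did not share 1 direction. Of 40 listed genes 35 were tested, 22 lay below and 13 above 0 around a median of -0.11. edgeR called 0 with or without the block, and DESeq2 called 1 lower (0.638% of all genes in either direction). At an unadjusted p under 0.05 edgeR had 4 lower and 3 higher, where 2.48% of all genes were lower and 5.04% higher. For 4 of the 35 every Ogt-KD library lay below every control (5.88% of all genes). For 2, Zbtb16 and Il1r2, every Ogt-KD library lay above (7.43% of all genes). Cxcr4, the receptor that holds lymphocytes in Cxcl12-rich niches, had 98.6, 106 and 168 CPM in Ogt-KD replicates 1, 2 and 3, against 196, 282 and 269 CPM in control replicates 1, 2 and 3. Its groups did not overlap (log2 difference -0.999, SE 0.24, adjusted p = 0.512 by edgeR and 0.0183 by DESeq2). Tle1, a Groucho corepressor, also did not overlap and averaged 11.2 ± 0.592 CPM in Ogt-KD and 15.7 ± 2.96 CPM in control libraries (-0.48, SE 0.17). Zbtb16, which encodes PLZF, a factor of innate-like T cells, lay higher in every Ogt-KD library, at 2.30, 2.13 and 3.32 CPM in Ogt-KD and 0.731, 1.37 and 0.845 CPM in control replicates 1, 2 and 3 (1.38, SE 0.34, edgeR adjusted p = 0.517). Il1r2, the decoy receptor of interleukin 1, averaged 15.6 ± 4.93 CPM in Ogt-KD and 8.60 ± 2.31 CPM in control libraries (0.86, SE 0.29). Its groups were barely apart, with 10.68 CPM in Ogt-KD replicate 1 and 10.59 CPM in control replicate 3. Leaving out Ogt-KD replicate 3 put the median of this list at -0.30, and leaving out Ogt-KD replicate 1 put it at -0.02.

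Genes known to be repressed by glucocorticoids, mostly of cytokines but also Tbx21 and enzyme genes such as Ptgs2, lay mostly higher in Ogt-KD libraries. Of 20 listed genes 15 were tested, 13 lay above 0 and the median was 0.70. This list was also chosen with earlier results of these data known, so its counts are a description only. edgeR called 0 of them, DESeq2 called 2 higher (0.638% of all genes in either direction), and in edgeR 3 had an unadjusted p under 0.05 and a higher level in Ogt-KD (5.04% of all genes). With the block it called 1 higher, Ccl5 (0.199% of all genes were called higher in that fit). Ccl5, a chemokine of effector T cells, had 95.6, 78.0 and 50.5 CPM in Ogt-KD replicates 1, 2 and 3, against 39.4, 43.9 and 25.7 CPM in control replicates 1, 2 and 3 (log2 difference 1.04, SE 0.28). Its adjusted p was 0.526 by edgeR, 0.0363 with the block and 0.0396 by DESeq2. Ifng, the cytokine of type 1 helper cells, had 17.8, 19.8 and 9.75 CPM in Ogt-KD replicates 1, 2 and 3, against 6.62, 6.28 and 5.86 CPM in control replicates 1, 2 and 3. Its log2 difference of 1.33 (SE 0.27) had an adjusted p of 0.483 by edgeR and 0.0028 by DESeq2. For Ccl5 and Ifng, 2 of the 15 tested, every Ogt-KD library was above every control, where 7.43% of all genes were. Tbx21, the factor that sets the type 1 programme, averaged 29.9 ± 12.5 CPM in Ogt-KD and 17.1 ± 4.38 CPM in control libraries (0.80, SE 0.36), with groups that overlapped. Tnf, which encodes the inflammatory cytokine TNF, averaged 21.4 ± 6.73 CPM in Ogt-KD and 13.1 ± 1.72 CPM in control libraries (0.70, SE 0.25), with groups that overlapped. The list median was 0.18 without Ogt-KD replicate 2, the library with the most Il1b (57.4 CPM) and with the highest dendritic cell sum (2356 CPM). The part of those cells was not tested.

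None of the genes that act with Txnip or in the pathways of Sgk1 and Ddit4 passed the adjusted test. Of 12 genes of thioredoxins, alpha-arrestins and Mlx factors 11 were tested, with a median of 0.009, 6 above 0, and edgeR and DESeq2 each called 0, with 0 at an unadjusted p under 0.05. Mlx, a partner of the glucose-sensing factor that drives Txnip, averaged 40.1 ± 1.24 CPM in Ogt-KD and 44.9 ± 1.90 CPM in control libraries (-0.16, SE 0.08), Txnrd2 had 0.22 (SE 0.12), Txn2 -0.14 (SE 0.08) and Mlxip -0.24 (SE 0.20). For 2 of the 11, Mlx and Txn2, every Ogt-KD library lay below every control (5.88% of all genes), and for 1, Txnrd2, above (7.43%). Of 20 genes listed for PI3K, mTORC1 and FOXO signalling 19 were tested, with a median of -0.07 and 13 below 0. These counts include Pdk1, which is not a gene of those pathways. edgeR and DESeq2 each called 0. At an unadjusted p under 0.05 edgeR had 1 gene, higher in Ogt-KD, which is near the share of 5.04% over all genes. That gene was Sesn2, a stress-induced inhibitor of mTORC1, at 18.7 ± 2.45 CPM in Ogt-KD and 14.2 ± 1.36 CPM in control libraries (0.39, SE 0.15, edgeR adjusted p = 0.624). Foxo1, whose product Sgk1 and Akt phosphorylate, had -0.24 (SE 0.15), Pdk1, a pyruvate dehydrogenase kinase gene, -0.31 (SE 0.15) and Deptor -0.45 (SE 0.39).

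The genes whose log2 CPM was most like that of Nr3c1 over the 6 libraries were Hdgfl3, Anp32a and Dennd1b, with Pearson correlations of 0.994, 0.990 and 0.990. Dennd1b ranged from 70.9 to 76.7 CPM in Ogt-KD and from 77.2 to 81.6 CPM in control libraries. Those most like Tsc22d3 were Sh3bp5 (0.989), Atp1b1 (0.988) and March6 (0.987), which the deposited table spells 6-Mar. Atp1b1, a subunit of the sodium pump, had 49.5, 37.2 and 89.4 CPM in Ogt-KD replicates 1, 2 and 3, against 75.2, 83.5 and 104 CPM in control replicates 1, 2 and 3. With 16075 genes and 6 libraries, of which both numbered 3 lay at 1 end of the first principal component, correlations of this size are a description only.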

How the data were processed

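Splenic CD4+ T cell RNA of 3 Ogt-KD and 3 control mice was sequenced from TruSeq libraries, per the labels' protocols. The authors deposited whole read counts per Ensembl gene, FPKM, their group means as a normalised signal, and their own log2 fold changes with p-values. The deposited gene length, an other unit in bases, served to check that FPKM is proportional to count over length within a library. Listed in the submitters' processing notes are TopHat2 2.0.9, Bowtie2 2.0.6 and the build mm9. Of 54532 identifiers 53499 have the coordinates of GENCODE M21, so positions are on GRCm38. The deposited coordinates of Nr3c1 and Klf9 are not identical to those of GENCODE M21, and those of the other members are. The sources used here name no counting tool or strand setting.

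Counts were tested with the edgeR 4.0.16 quasi-likelihood test (TMM, filterByExpr, R 4.3.3, Benjamini-Hochberg over 16075 genes). DESeq2 1.42.0, limma-voom (limma 3.58.1), other scalings, no filter, libraries left out and the replicate block were alternatives. The labels state no pairing. Deviations from the group mean correlated over genes at 0.109, 0.346 and 0.523 for same-numbered libraries 1, 2 and 3. Ogt-KD replicate 1 correlated more with control replicate 2 (0.267), and Ogt-KD replicate 2 correlated with control replicate 1 at 0.0736. The remaining pairs ran from -0.418 to -0.122. Deviations within a group sum to 0, so these values depend on each other and do not establish pairs. The fit was tested on simulated data. No 2 libraries were copies (chi-squared per degree of freedom from 9.27 to 81.9). Named genes were all members, the 4 smallest p of each list and the 3 genes most like Nr3c1 and Tsc22d3. A gene named by this rule is not reported here. Other names (such as Hsph1, Ptges3, Bag1, Vcam1 and Il1b) were chosen after their values were seen. The members and lists were chosen with earlier results of these data known.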

Additional observations from a re-analysis of the deposited data

How the results depend on the processing

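No member passed an adjusted p of 0.05 under any of the 13 alternatives, whose lowest adjusted p for a member was 0.0703, for Sgk1 with the replicate block. Nr3c1, Tsc22d3, Sgk1 and Ddit4 kept a negative sign in all 13. The range over single libraries left out was -0.22 to -0.12 for Nr3c1, -1.17 to -0.46 for Tsc22d3, -0.55 to -0.39 for Sgk1 and -0.91 to -0.22 for Ddit4. It ran from -0.84 to 0.14 for Fkbp5, from -0.88 to 0.43 for Klf9 and from -0.81 to 0.025 for Txnip. The sign turned for Klf9 with library size only (0.0064), without Ogt-KD replicate 1 (0.26), without Ogt-KD replicate 2 (0.27) and without control replicate 3 (0.43). It turned for Txnip without Ogt-KD replicate 2 (0.025) and for Fkbp5 without control replicate 3 (0.14), and the cause was not tested. Over all genes edgeR called 1, against 47 with the replicate block, 4 without a filter, 111 with DESeq2 and 35 without both libraries numbered 3, of which 5 were among the 47. It called 1 to 2 with a single library left out. DESeq2 called 4 chaperones, 1 induced and 2 repressed genes that edgeR did not. The block changed the calls of Fkbp4, Hsph1 and Ccl5, of 4 dendritic cell and of 2 erythroid markers, and no other call among the members and lists. Scaling by library size only moved the median of all genes to 0.05. Depth limits Klf9 most, at 71 to 315 reads.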

Other observations

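The immediate early genes are switched on by stimulation, and by dissociation of a tissue as well. Of 14 genes, all tested, 8 lay below 0 with a median log2 fold change of -0.11, and edgeR called 0 of them with or without the replicate block, as did DESeq2. At an unadjusted p under 0.05, 2 were lower, Fos and Jund (2.48% of all genes were), and for 3 of the 14 every Ogt-KD library lay below every control (5.88% of all genes). Fos, a subunit of the AP-1 factor, had 127, 168 and 91.6 CPM in Ogt-KD replicates 1, 2 and 3, against 184, 343 and 190 CPM in control replicates 1, 2 and 3, with no overlap (log2 fold change -0.89, SE 0.31, edgeR adjusted p = 0.596). Jund, another AP-1 subunit, averaged 182 ± 6.78 CPM in Ogt-KD and 232 ± 35.4 CPM in control libraries (-0.35, SE 0.12). Fosb averaged 91.6 ± 50.6 and 218 ± 112 CPM in Ogt-KD and control libraries (-1.25, SE 0.54), and Junb had -0.39 (SE 0.17). The summed level of the 14 genes was 2297, 2869 and 2314 CPM in Ogt-KD replicates 1, 2 and 3, against 3143, 3589 and 2636 CPM in control replicates 1, 2 and 3.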
